A study of Mus musculus with 6 samples.

Results

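The genes described here are 10 pan-endothelial identity genes, which are used as markers of endothelial cells (ECs) in most vessel types: Pecam1, Cdh5, Emcn, Egfl7, Cd34, Adgrl4 (also called Eltd1), Mmrn2, Clec14a, Esam and Cldn5. They were chosen by name as general endothelial markers, with earlier results of these data known, and all 10 were found among the 24421 gene symbols of the count table and passed the filter on low counts. The study asked how aging alters the liver endothelium. For these libraries, CD31+CD45- liver ECs were sorted by fluorescence-activated cell sorting from wild-type C57BL/6J female mice and sequenced as bulk RNA. The young group held 3 samples from 10-week-old mice, and the aged group held 1 sample each of 127, 131 and 136 weeks. No treatment is given in the labels. The comparison asks whether general endothelial identity differs with age in the sorted cells, beside genes that mark single types of vessel.

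ECs line the vessels and hold to each other through adherens and tight junctions, which contain VE-cadherin (Cdh5), claudin-5 (Cldn5), PECAM-1 (Pecam1) and the immunoglobulin-family adhesion molecule Esam. Their surface also carries sialomucins (Cd34, Emcn), the C-type lectin Clec14a, which binds the matrix protein multimerin-2 (Mmrn2), and the orphan adhesion receptor Adgrl4, while Egfl7 is a secreted endothelial factor. In the liver most ECs are sinusoidal: they are fenestrated and carry scavenger receptors such as Stab2, whereas portal veins, central veins and arteries are lined by continuous ECs.

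Total counts ran from 23001556 to 31651817 per sample, so that 3 counts corresponded to 0.0948 to 0.130 CPM, the count scaled to library size, and every pan-endothelial gene was far above that floor. The libraries fell into a pair of clusters that did not follow age. Lars2 and Rn45s, the ribosomal RNA precursor, took 1.29% of the counts in young sample 3 and 0.960% in the 127-week sample, against 4.68% to 5.53% in the other 4 samples. Differences are therefore also given within each cluster, as 2 aged against 2 young libraries and as 1 aged against 1 young library. The labels give no batch, and no pair of libraries of the same age agreed within sampling noise (smallest chi-square per degree of freedom 21.3).

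The identity of the sorted cells by these genes was plain in every sample. FPKM, a read count divided by transcript length and by library size, is the deposited scale on which different genes can be compared. By mean FPKM over all samples, Egfl7 ranked 70 and Esam 90 among 24346 listed genes, and the lowest member, Cd34, ranked 1413. In young ECs the level was 808 ± 225 FPKM for Egfl7 (SD, n = 3, as in the values that follow), 806 ± 175 for Esam, 452 ± 44.7 for Pecam1, 406 ± 14.3 for Adgrl4 and 275 ± 29.2 for Clec14a. Mmrn2 followed at 268 ± 0.50 FPKM, Emcn at 210.2 ± 27.5, Cldn5 at 189 ± 62.0, Cdh5 at 109 ± 15.6 and Cd34 at 50.8 ± 10.7. Neighbours in that order overlapped in their single samples for Egfl7 and Esam, for Clec14a and Mmrn2, and for Emcn and Cldn5. In aged ECs the order began alike, with Egfl7 at 708 ± 124 FPKM, Esam at 544 ± 83.9, Pecam1 at 454 ± 45.3 and Adgrl4 at 310.2 ± 78.4. Below these stood Emcn at 258 ± 56.7 FPKM, Mmrn2 at 257 ± 16.8, Cldn5 at 226 ± 81.4, Clec14a at 188 ± 28.0, Cdh5 at 93.8 ± 28.5 and Cd34 at 84.4 ± 35.3. Clec14a thus ranked 5 of 10 in young ECs and 8 of 10 in aged ECs. Among the neighbours in the aged order, only Pecam1 and Adgrl4, and Clec14a and Cdh5, did not overlap in their single samples.

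**Figure D1:**
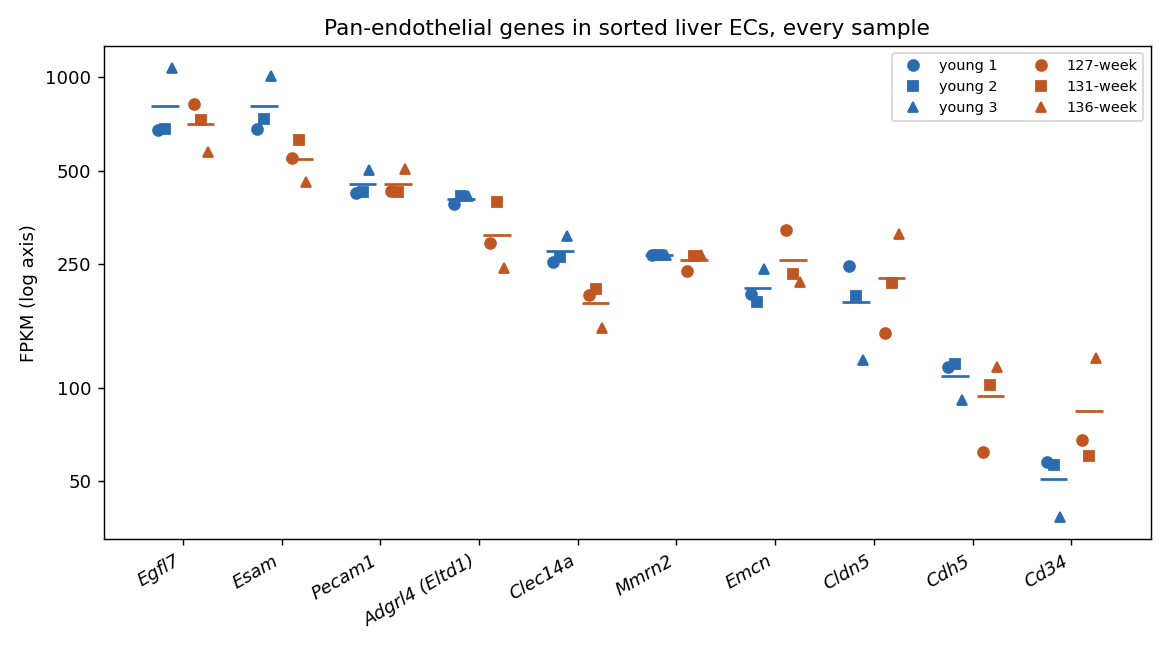
Level of the 10 pan-endothelial genes in each sample, in FPKM on a log axis, with young samples in blue and aged samples in orange; horizontal bars are the means of 3 samples. Clec14a and Esam lay lower in each aged sample than in any young sample, and Cd34 lay higher. Aged Mmrn2 values also lay below all young ones in FPKM, but barely (highest aged 267.09, lowest young 267.22). The groups overlapped for the remaining genes.

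Among the junctional genes, Pecam1 and Cdh5 overlapped between the ages. Pecam1, whose protein CD31 was itself used in the sort, stood at 425, 427 and 503 FPKM in young samples 1, 2 and 3 and at 431, 426 and 506 FPKM in the samples of 127, 131 and 136 weeks. Each group thus held a pair of samples at 425 to 431 FPKM and 1 sample well above them. On the counts, the log2 fold change of aged against young ECs was 0.01 ± 0.17 (SE), with a 95% interval from -0.39 to 0.42 (edgeR quasi-likelihood test, adjusted p = 0.985). Cdh5, the cadherin of endothelial adherens junctions, was at 117, 119 and 91.1 FPKM in young and 62.0, 102 and 117 FPKM in aged ECs. Its lowest values lay in young sample 3 and the 127-week sample, that is, in the libraries poor in Lars2 and Rn45s. It had a log2 fold change of -0.21 ± 0.26 (interval -0.82 to 0.40, edgeR adjusted p = 0.807). The cluster with few such counts stood 0.62 log2 units lower than the other cluster in log2 CPM, averaged over the ages. Without the 127-week sample the log2 fold change of Cdh5 was 0.026.

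Cldn5, the main claudin of endothelial tight junctions, was spread widely within each age. It stood at 246, 198 and 123 FPKM in young samples and 150, 217 and 312 FPKM in aged samples. The same pair of libraries as for Cdh5 was lowest, and the groups overlapped. Its log2 fold change was 0.26 ± 0.34 with a 95% interval from -0.54 to 1.07 (edgeR adjusted p = 0.817), so that a change of 2-fold upward lay within the error. Esam, which joins neighbouring ECs at tight junctions and is also present on platelets, was at 680, 733 and 1006 FPKM in young ECs and at 548, 626 and 458 FPKM in aged ECs. All 3 aged samples lay below all 3 young samples. Its log2 fold change was -0.56 ± 0.22 (interval -1.06 to -0.051), or 0.680 times the young level on the count scale. The unadjusted p was 0.0352 and the adjusted p 0.366 (edgeR), so Esam did not pass the threshold. It was lower within both clusters, by log2 differences of -0.39 and -0.86. Counts of the platelet list, summed over its 8 genes, ran from 28.7 to 34.6 CPM in young and from 24.6 to 34.0 CPM in aged ECs.

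Clec14a and its ligand Mmrn2 differed in their pattern. Clec14a was at 254, 263 and 309 FPKM in young ECs and at 199, 208 and 156 FPKM in aged ECs. The groups did not overlap, and the 136-week sample was lowest. It had a log2 fold change of -0.55 ± 0.18, with an interval from -0.97 to -0.12, or 0.685 times the young level (0.509 to 0.922). The unadjusted p was 0.0194 and the adjusted p 0.324 by edgeR, against an adjusted p of 0.0481 by DESeq2, and over all 18 alternatives the adjusted p ran from 0.0481 to 0.654. Within the clusters the log2 differences were -0.52 and -0.62. Mmrn2, an extracellular matrix protein of the endothelium, was at 267, 268 and 268 FPKM in young ECs and 238, 266 and 267 FPKM in aged ECs. Only the 127-week sample departed from the rest. The log2 fold change of Mmrn2 was -0.051 ± 0.15 (interval -0.41 to 0.31, edgeR adjusted p = 0.938). Among the 10 genes, Mmrn2 had the smallest coefficient of variation of CPM at either age, 1.28% in young and 7.34% in aged ECs.

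Of the sialomucins, Cd34 was higher in aged ECs without overlap and Emcn was not separated by age. Cd34, a surface sialomucin of ECs and of blood progenitors, was at 57.6, 56.3 and 38.5 FPKM in young ECs and at 67.9, 60.3 and 125 FPKM in aged ECs. The 131-week sample stood only just above the highest young sample, and the 136-week sample stood apart from all others. The fitted log2 fold change was 0.74 ± 0.32 with an interval from -0.014 to 1.49 (edgeR unadjusted p = 0.0535, adjusted p = 0.402). Without the 136-week sample it was 0.33, and without the 131-week sample 0.93. The log2 differences within the clusters were 0.61 and 0.84. Emcn, endomucin, a sialomucin of capillary and venous ECs, was at 200.0, 189 and 241 FPKM in young and 323, 232 and 220 FPKM in aged ECs. The 127-week sample was highest, and the other aged samples lay within the young range. Its log2 fold change was 0.30 ± 0.19 (interval -0.15 to 0.75, edgeR adjusted p = 0.575), and 0.12 without the 127-week sample.

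Adgrl4 and Egfl7 completed the list. Adgrl4, an adhesion G protein-coupled receptor of ECs, was at 389, 415 and 414 FPKM in young ECs and at 292, 396 and 243 FPKM in aged ECs. The young samples lay close together, and the 131-week sample fell among them while the other aged samples lay lower. Aged against young, the log2 fold change was -0.38 ± 0.22 (interval -0.89 to 0.13, edgeR adjusted p = 0.535). It was -0.60 without the 131-week sample and -0.23 without the 136-week sample. The coefficient of variation of CPM was 3.10% in young and 25.5% in aged ECs. Egfl7, a secreted factor whose locus also encodes miR-126, was at 675, 680 and 1067 FPKM in young ECs and at 822, 727 and 575 FPKM in aged ECs. Young sample 3 stood above all others and the 136-week sample below. The log2 fold change of Egfl7 was -0.18 ± 0.25 (interval -0.76 to 0.41, edgeR adjusted p = 0.836), and 0.081 without young sample 3.

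On the mm9 assembly, Clec14a spans chr12:59365707-59370245 on the minus strand and Cldn5 spans chr16:18776940-18778353 on the plus strand, each with 1 exon in the GENCODE annotation. The other 8 genes have 7 to 16 exons in their longest transcript. Cd34, at chr1:196765015-196787486 on the plus strand, is overlapped over 5534 bases, exons included, by the antisense lincRNA Gm16897. Egfl7, at chr2:26435534-26448640 on the plus strand, shares 6482 bases with Gm20532 on the same strand. It also contains Mir126 and meets the 3′ neighbour Agpat2 over 64 bases on the opposite strand. Whether counting used the strand is not given in the sources used here, so the counts of Cd34 and Egfl7 are uncertain to the extent that these overlaps were read.

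The upstream sequences of Clec14a and Cd34 are shown because these members had the smallest p among those lower and among those higher in aged ECs. RefSeq promoter entries were matched for 6 of the 10 genes, in 8 windows of 250 bases before a start site (GRCm38.p6, a different assembly from mm9). Pecam1, Cdh5, Mmrn2 and Esam had no entry. The windows printed are chr12:58269259-58269508 on the minus strand for Clec14a and chr1:194938571-194938820 on the plus strand for Cd34, 5′ to 3′, with GGAA and its reverse complement TTCC, the core recognised by ETS factors, in capitals.
Clec14a: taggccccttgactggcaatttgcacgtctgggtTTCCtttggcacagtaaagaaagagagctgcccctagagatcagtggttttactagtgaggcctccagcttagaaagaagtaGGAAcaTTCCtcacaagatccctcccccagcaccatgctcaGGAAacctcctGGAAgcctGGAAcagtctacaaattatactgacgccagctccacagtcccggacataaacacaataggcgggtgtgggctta
Cd34: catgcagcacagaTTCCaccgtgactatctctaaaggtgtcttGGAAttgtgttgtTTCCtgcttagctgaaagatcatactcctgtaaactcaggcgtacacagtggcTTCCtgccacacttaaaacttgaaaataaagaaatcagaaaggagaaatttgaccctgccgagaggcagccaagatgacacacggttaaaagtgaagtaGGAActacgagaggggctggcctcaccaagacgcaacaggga
GGAA was found on either strand 6 times upstream of Clec14a and 5 times upstream of Cd34. It was present in 7 of the 8 member windows and in 93.4% of all 32851 windows of that length, with a median of 3 matches, so its presence did not set these genes apart. The longer CCGGAA, which contains GGAA, was found in 1 of the 8 windows, that of Adgrl4, and in 12.0% of all windows. The forkhead motif GTAAACA, searched on both strands like the others, was in 0 of the 8 windows and in 3.17% of all windows. The GATA motif GATAAG was in 0 of the 8 and in 6.55% of all windows. The TATA motif TATAAA was in 0 of the 8 and in 12.4% of all windows. Cldn5 was the member whose window held none of these motifs.

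Across the 10 genes, none was called by edgeR at an adjusted p below 0.05 with a log2 fold change beyond 1. This matched the background, since 0% of the 14612 genes tested were called in either direction, with a smallest adjusted p of 0.0735. At an unadjusted p below 0.05, 0 members were higher and 2 were lower (Clec14a and Esam), against 8.32% of all genes tested higher and 4.32% lower. DESeq2 gave an adjusted p below 0.05 for 1 member, Clec14a, which was lower, against 1.03% of genes tested lower and 3.3% higher. limma-voom with quality weights gave 0 members, against 0.103% of genes tested in either direction, and limma on log2(FPKM + 1) gave 0 members, against 0%. Young and aged samples did not overlap in CPM for 3 members. Of these, 1 was higher (Cd34), against 9.62% of all genes tested, and 2 were lower (Clec14a and Esam), against 8.33%. A single gene makes up 10% of such a list, so these shares are coarse.

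The intervals bound how far each gene can have moved. For 7 of the 10 genes the 95% interval lay within 2-fold in both directions, and for Pecam1 and Mmrn2 it lay within 1.5-fold. The interval of Esam reached beyond 2-fold downward, and those of Cd34 and Cldn5 beyond 2-fold upward. The interval left out 0 only for Clec14a and Esam. Without each sample in turn, Emcn, Cd34, Adgrl4, Clec14a and Esam kept the sign of their log2 fold change, and the other 5 turned in at least 1 of the 6 fits. The difference between the library clusters was larger than that between the ages for 6 genes (Pecam1, Cdh5, Emcn, Egfl7, Mmrn2 and Cldn5). Within the clusters, the age difference had the same sign in both for 9 of 10 genes, Pecam1 being the exception with log2 differences of 0.13 and -0.22.

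**Figure D2:**
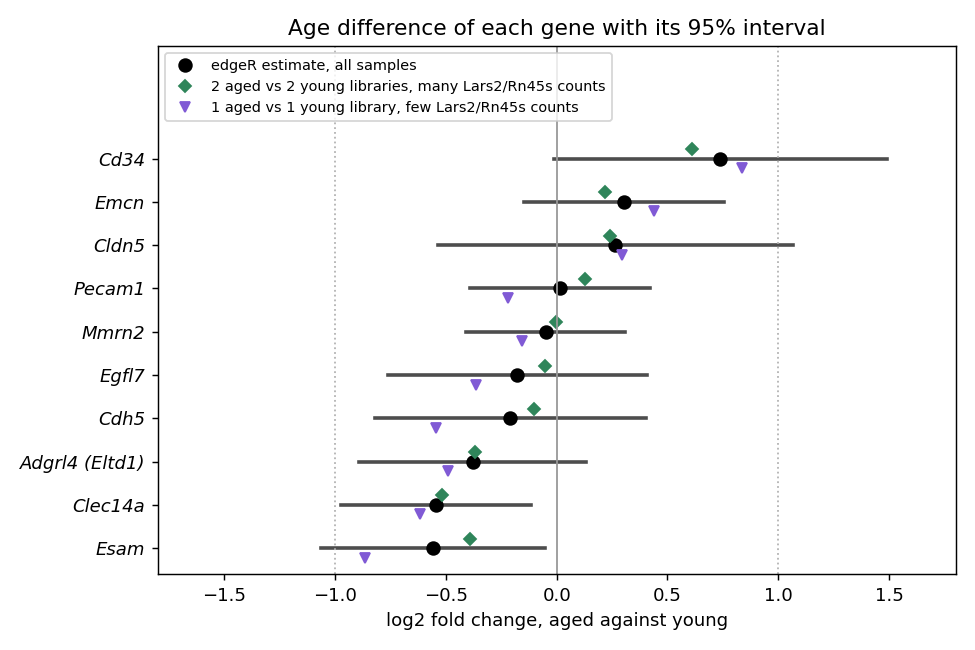
Log2 fold change of aged against young ECs for the 10 genes (black points, edgeR estimate over 6 samples) with 95% intervals (lines), and log2 differences within the libraries with many (green diamonds) or few (purple triangles) Lars2 and Rn45s counts. Dotted lines mark 2-fold, and the intervals of Clec14a and Esam lie below 0. Both cluster values have the same sign for all genes but Pecam1, although the green values of Mmrn2 and Egfl7 lie close to 0.

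As a group the 10 genes were centred near no difference. Their median log2 fold change was -0.11, against 0.0098 over all genes tested and -0.039 over the 8913 genes with a mean CPM of at least 10. The median size of the change regardless of sign was 0.28, against 0.25 over all genes tested and 0.18 over the genes with a mean CPM of at least 10. Summed over the 10 genes, the level was 8282 to 9518 CPM in young ECs and 7282 to 8054 CPM in aged ECs, and the ranges did not overlap. The mean of the centred log2(CPM + 1) values, which weights the 10 genes equally, was 0.045, 0.032 and 0.032 in young samples and -0.14, 0.012 and 0.016 in the samples of 127, 131 and 136 weeks. By this mean the 127-week sample was lowest, and the other aged samples lay just below the young samples.

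The members varied more among the aged samples than among the young ones. The coefficient of variation of CPM was larger in aged ECs for 8 of 10 genes, against 58.2% of all genes tested and 60.0% of the genes with a mean CPM of at least 10. Its median over the 10 genes was 13.5% in young and 19.5% in aged ECs, against 19.5% and 23.1% over all genes tested and 13.8% and 16.8% over the genes with a mean CPM of at least 10. Egfl7 and Esam were the exceptions, since young sample 3 stood high for both. In the 136-week sample, 3 of the 10 genes had their highest value of all samples (Pecam1, Cd34 and Cldn5) and 4 their lowest (Egfl7, Adgrl4, Clec14a and Esam). The deviations of that sample thus ran in opposite directions and cancelled in the mean.

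**Figure D3:**
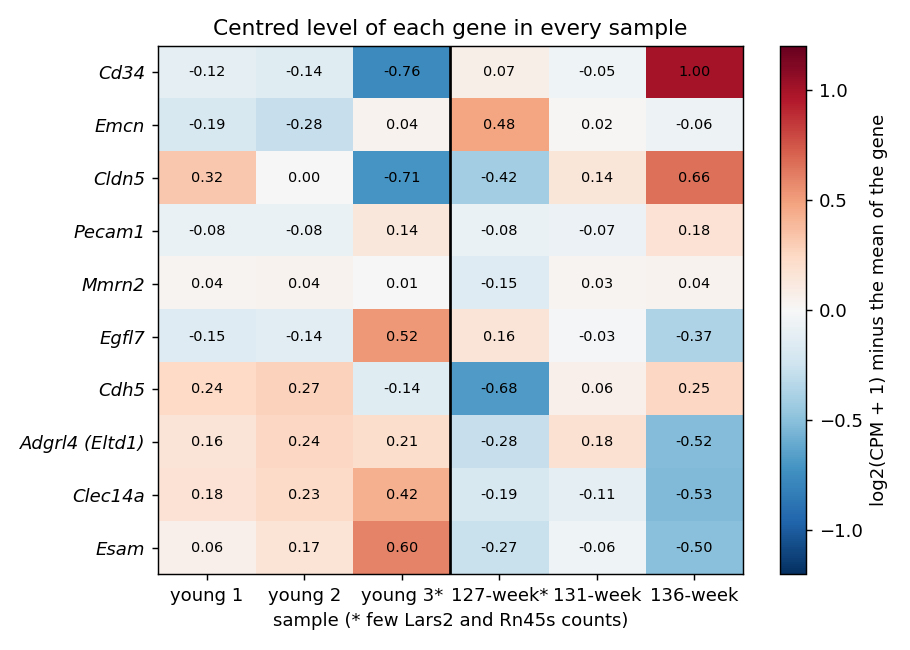
Centred level of each gene in every sample, as log2(CPM + 1) minus the gene's mean over 6 samples, with red above and blue below the mean; young samples are to the left of the black line. The 136-week sample holds the highest Cd34 and Cldn5 values and the lowest Esam, Clec14a and Adgrl4 values.

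Ratios between members within a sample do not depend on the scaling of that library. Clec14a over Mmrn2, both in FPKM, was 0.951, 0.982 and 1.15 in young ECs and 0.838, 0.780 and 0.583 in aged ECs. Esam over Pecam1 was 1.60, 1.72 and 2.00 in young and 1.27, 1.47 and 0.905 in aged ECs. Both ratios were lower in all 3 aged samples, by log2 differences of -0.50 and -0.56. Cd34 over Pecam1 was 0.135, 0.132 and 0.076 in young ECs and 0.158, 0.142 and 0.247 in aged ECs. Cldn5 over Cdh5 was 2.11, 1.66 and 1.35 in young ECs and 2.41, 2.12 and 2.67 in aged ECs, although neither gene alone was separated by age. This ratio was separated only barely (highest young 2.110, lowest aged 2.115). For each of these 4 ratios the groups did not overlap and the two-sided exact permutation test gave p = 0.1, the smallest value that 3 samples against 3 allow, so that no ratio could pass 0.05. These 4 ratios were chosen with the values known and are descriptions. Cdh5 over Pecam1 and Mmrn2 over Pecam1 overlapped between the ages (exact permutation p = 0.5 for each).

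**Figure D4:**
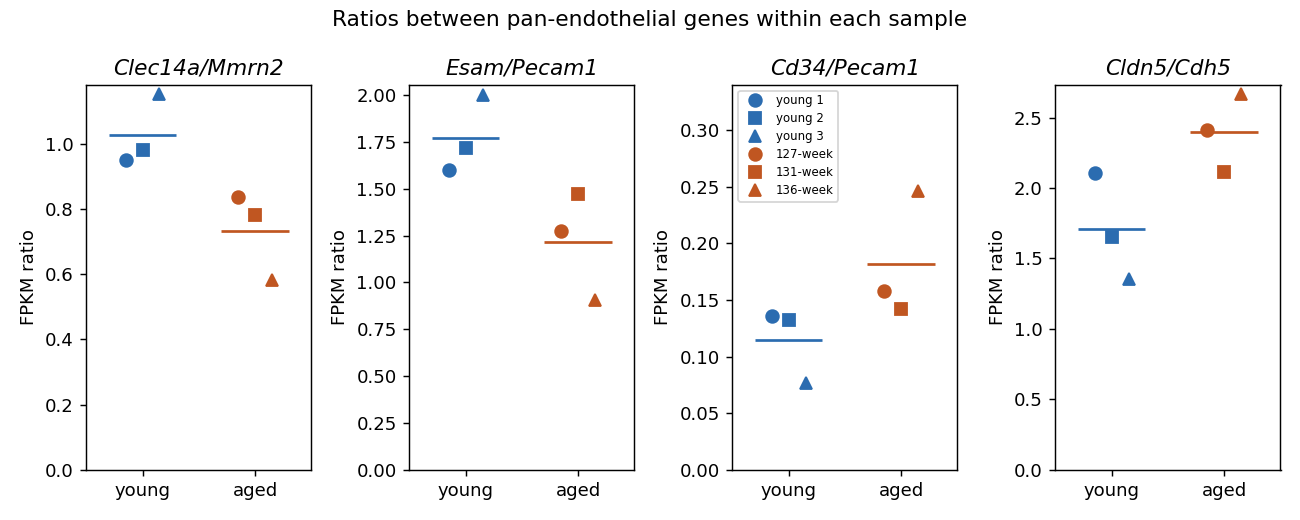
Ratios of FPKM between members in each sample, with young samples in blue and aged samples in orange and bars at the means of 3 samples. All 3 aged samples lie below the young samples for Clec14a over Mmrn2 and Esam over Pecam1, and above them for Cd34 over Pecam1 and, only barely, for Cldn5 over Cdh5.

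Of 30 further genes expressed by ECs of most vessels, 11 had a positive and 19 a negative log2 fold change, with a median of -0.15, and log2 fold changes ran from -0.65 to 1.08. At an unadjusted p below 0.05, 1 was higher and 3 were lower, against 8.32% and 4.32% of all genes tested. Without overlap in CPM between the ages, 2 were higher and 6 lower, against 9.62% and 8.33% of all genes tested. DESeq2 gave an adjusted p below 0.05 for 1 higher gene and 1 lower gene, against 3.3% and 1.03% of genes tested. These were Sox7, an endothelial transcription factor (log2 fold change 1.08, DESeq2 adjusted p = 0.00898), and Robo4, an endothelial receptor of the Roundabout family (log2 fold change -0.63, DESeq2 adjusted p = 0.00237), both singled out after their values were seen. Over the list, edgeR called 0 genes. The most abundant of them was Eng, the endoglin co-receptor of TGF-beta family ligands, at 4945, 4904 and 5135 CPM in young and 4016, 4458 and 3427 CPM in aged ECs (log2 fold change -0.33, edgeR adjusted p = 0.55). Kdr, the main VEGF receptor of ECs, stood at 3331, 3509 and 3681 CPM in young and 2032, 3008 and 1670 CPM in aged ECs. All aged values were below the young ones (log2 fold change -0.65 ± 0.25, edgeR adjusted p = 0.368). Ptprb, a receptor phosphatase of endothelial junctions, had a log2 fold change of -0.45 (edgeR adjusted p = 0.678). That of Adgrf5, another adhesion receptor, was -0.50 (edgeR adjusted p = 0.449). Groups overlapped for both.

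Of 15 genes whose products bind or build the same junctions, 14 were tested. Log2 fold changes were positive for 11 and negative for 3, with a median of 0.23, and 3 were higher and 0 lower at an unadjusted p below 0.05, against 8.32% and 4.32% of all genes tested. The 3 higher genes were Cgn, Ocln and Jam3, the least abundant of the 14. In young ECs Cgn was at 0.135 to 0.726 CPM, with 3 counts in young sample 2, Ocln at 3.25 to 4.88 CPM and Jam3 at 16.2 to 24.7 CPM. The most abundant were Jam2, Ctnna1, Ctnnb1 and F11r, which are a junctional adhesion molecule, the alpha and beta catenins and a further junctional adhesion molecule. Their log2 fold changes were -0.088, 0.075, 0.20 and 0.0063. At an adjusted p below 0.05, 0 of the 14 were called by edgeR or DESeq2.

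Markers of sinusoidal ECs stood further from 0. Of 18 sinusoidal markers, 17 had a negative log2 fold change, with a median of -1.01, and 12 were lower at an unadjusted p below 0.05, against 4.32% of all genes tested. Of these 0 passed edgeR's adjustment, whereas 8 of the 18 were lower at an adjusted p below 0.05 by DESeq2, against 1.03% of genes tested. Stab2, a scavenger receptor for hyaluronan, was at 2902, 3199 and 3021 CPM in young ECs and at 504, 1760 and 542 CPM in aged ECs (log2 fold change -1.70 ± 0.49, edgeR adjusted p = 0.265). The most abundant sinusoidal markers were Stab1, Clec4g, Dnase1l3 and Ehd3, with log2 fold changes of -0.73, -1.46, -1.50 and -0.94 and edgeR adjusted p of 0.254, 0.308, 0.308 and 0.538. Lyve1 was the exception to the direction, at 391, 537 and 671 CPM in young and 661, 223 and 1506 CPM in aged ECs. Stab2 over Pecam1, in FPKM, was 0.818, 0.901 and 0.729 in young and 0.139, 0.494 and 0.128 in aged ECs (exact permutation p = 0.1). In bulk RNA, fewer cells of a type and less RNA of its genes per cell cannot be told apart.

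Of 20 markers of continuous and large-vessel ECs, 16 had a positive log2 fold change, with a median of 0.34, which was 0.13 by limma-voom, nearer 0 than the medians of the junction list (0.16) and of the other pan-endothelial genes (-0.20) in that fit. At an unadjusted p below 0.05, 7 were higher and 0 lower, against 8.32% and 4.32% of all genes tested. DESeq2 called 5 of them higher at an adjusted p below 0.05, against 3.3% of genes tested. Cd200, a surface glycoprotein of large-vessel ECs in the liver, was at 144, 132 and 129 CPM in young and 255, 214 and 356 CPM in aged ECs (log2 fold change 1.03 ± 0.21, edgeR adjusted p = 0.194). The most abundant markers of this list were not separated by age. The log2 fold change was 0.05 for Vwf, which is von Willebrand factor, 0.42 for Plvap, a protein of endothelial diaphragms, 0.25 for Ly6a and -0.20 for Ephb4, a receptor of venous ECs, with edgeR adjusted p from 0.601 to 0.972. The log2 fold changes ran from -0.56 to 0.74 among the 10 pan-endothelial genes and from -0.65 to 1.08 among the 30 further pan-endothelial genes. They ran from -1.70 to 0.58 among the 18 sinusoidal markers and from -0.77 to 1.98 among the 20 large-vessel markers. These lists differ in size, and a range tends to widen with the number of genes. Within the libraries rich and poor in Lars2 and Rn45s, the medians were -0.027 and -0.29 for the 10 genes, -1.08 and -1.25 for the sinusoidal list, and 0.32 and 0.69 for the large-vessel list. The difference between the lists was not tested, since the lists were chosen with earlier results known.

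**Figure D5:**
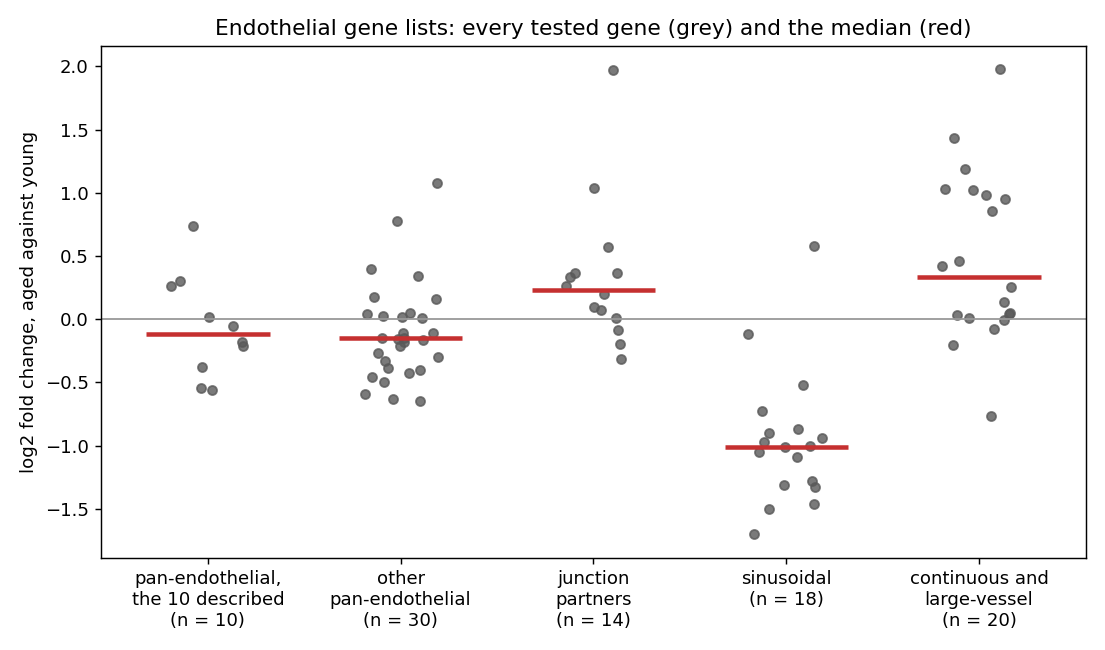
Log2 fold change of aged against young ECs (edgeR) for every tested gene of 5 endothelial gene lists (grey points) with the median of each list (red bars). The 10 pan-endothelial genes lie between -0.56 and 0.74 with a median of -0.11, while 17 of 18 sinusoidal markers lie below 0 and 16 of 20 large-vessel markers above 0.

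Summed markers of leukocytes, Kupffer cells and lymphatic ECs were highest in the 136-week sample. There Pecam1, Cd34 and Cldn5 were also highest, and Egfl7, Adgrl4, Clec14a and Esam lowest. In the 127-week sample the Kupffer and lymphatic sums, 207 and 2479 CPM, also lay above all young sums. In that sample Cd34 (146 CPM) lay above all young samples, and Adgrl4 (1171 CPM), Clec14a (886 CPM) and Esam (930 CPM) lay below all young samples. Cldn5 (185 CPM) and Egfl7 (1031 CPM) lay within the young range, and Pecam1 (1366 CPM) just below it. Of 12 pan-leukocyte markers, 12 had a positive log2 fold change, and their summed level ran from 173 to 202 CPM in young and from 195 to 487 CPM in aged ECs. Most of the young sum came from Lcp1 and Fcer1g, which had log2 fold changes of 0.28 and 0.017. In the 127-week sample Lcp1 (59.6 CPM) and Fcer1g (59.3 CPM) lay below all young samples. There Laptm5 (16.4 CPM) and Coro1a (11.8 CPM), the next most abundant, lay above all young samples, so the sum hides their rise. Ptprc, which encodes the CD45 used to gate out blood cells, was at 1.56, 1.17 and 1.70 CPM in young and 7.57, 1.28 and 25.6 CPM in aged ECs, highest in the 136-week sample. Kupffer and myeloid markers (11 of 12 positive) summed to 49.6 to 94.9 CPM in young and 34.7 to 525 CPM in aged ECs. Markers of T and NK cells (8 of 8 tested positive, of 10 listed) summed to 6.77 to 9.05 and 9.18 to 35.9 CPM, and those of B and plasma cells (5 of 5 tested positive, of 6 listed) to 1.10 to 4.02 and 1.05 to 20.3 CPM, with Pax5 at 0. All 4 tested lymphatic endothelial markers of 5 listed were positive, with Ccl21a at 0. Their sum, mainly Mmrn1, ran from 567 to 1496 CPM in young and from 1044 to 4599 CPM in aged ECs. In the 127-week sample Mmrn1 (2052 CPM), Reln (351 CPM) and Prox1 (68.2 CPM) lay above all young samples. Pdpn, at 8.05 CPM there, lay within its young range of 4.16 to 17.6 CPM. Mmrn1 was at 3916 CPM and Prox1 at 160 CPM in the 136-week sample, the highest of the 6. The part of these cells in the values of the members was not tested. Without the 136-week sample, the log2 fold change was -0.43 for Clec14a, -0.45 for Esam and 0.33 for Cd34, while that of Cldn5 turned from 0.26 to -0.042.

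Markers of hepatocytes (1 of 12 positive) summed to 283 to 368 CPM in young and 210 to 334 CPM in aged ECs, with Alb at 59.2, 40.3 and 74.7 and at 42.3, 45.7 and 36.6 CPM. Those of stellate and mural cells (6 of 12 positive) summed to 146 to 406 and 125 to 285 CPM, and those of cholangiocytes (6 of 6 positive, mainly Spp1) to 86.2 to 103 and 183 to 233 CPM. Of 8 platelet markers 5 were positive. Of 5 erythroid markers 1 was tested (Alas2, log2 fold change -0.23), and Hba-a1 and Hbb-b1 were at 0. The largest of these sums, 406 CPM, lay below the pan-leukocyte (487 CPM) and Kupffer and myeloid sums (525 CPM) of the 136-week sample. The 10 pan-endothelial genes summed to 7282 to 9518 CPM.

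The mean centred profile of the 10 genes, whose main feature is the low value in the 127-week sample, was compared with 8903 other genes with a mean CPM of at least 10. The most similar profiles over the 6 samples belonged to Il3ra (Pearson's r = 0.969), Tnfrsf26 (0.969), Ino80c (0.968), Stambp (0.968) and Apbb2 (0.966). These correlations are descriptions over 6 libraries that share their depth and cluster with the profile. Il3ra, for example, was at 26.1, 29.7 and 25.4 CPM in young ECs and at 13.1 CPM in the 127-week sample, with the other aged samples between.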

How the data were processed

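RNA of CD31+CD45- liver ECs was sequenced from 3 young and 3 aged samples, described by the authors as independent. The authors called bases with CASAVA 1.8.2 and mapped single-end reads to mm9 with TopHat2 2.1.0 (versions per the labels). They deposited whole-number read counts for 24421 genes, without normalization, and FPKM from Cuffnorm 2.2.1 for 24346 genes, scaled between samples. The counting program and strand setting are not given in the sources used here. Because no molecular identifiers were used, the floor of 3 counts covers counting error only.

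The 14612 genes that reached a CPM of 0.5 in any sample were normalized by TMM and tested with the quasi-likelihood test of edgeR 4.0.16 (R 4.3.3), with Benjamini-Hochberg adjustment over all genes tested. A call needed both an adjusted p under 0.05 and a log2 fold change beyond 1 in size. Standard errors were taken as the size of the log2 fold change over the square root of the F statistic, and 95% intervals use the t distribution with the degrees of freedom of the fit. DESeq2 1.42.0, limma-voom and limma (3.58.1) on log2(FPKM + 1) or log2(FPKM + 0.1) were alternatives. Both FPKM fits used genes with a minimum of 0.1 FPKM in a sample, and the fit on log2(FPKM + 1) was also run without it. The other alternatives were size factors of DESeq2, upper quartile factors, other filters, a term for the library cluster (split at 3% of counts in Lars2 and Rn45s), the removal of those genes and the removal of each sample. An analysis of the 4 libraries with many such counts was added after seeing the data. edgeR, DESeq2 and limma were tested on simulated counts.

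The 10 genes and all gene lists were chosen with earlier results of these data known, so lists are described by counts and medians without a test. Named genes are the 10 members, the 4 most abundant of each other list, Ptprc, Alb, Stab2, Vwf and Cd200, and the 5 genes of most similar profile. Lyve1, Sox7, Robo4, Cgn, Ocln, Jam3, the ratios, and genes named as at 0 were singled out after their values were seen. Symbols were matched through synonyms (Eltd1 as Adgrl4). Positions are from GENCODE on mm9, and promoter windows from RefSeq on GRCm38.p6.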

Additional observations from a re-analysis of the deposited data

How the results depend on the processing

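None of the 10 genes was called under any of the 18 alternatives. No member could be, since the largest log2 fold change in size was 0.93 (Cd34), below the threshold of 1. By adjusted p alone, Clec14a passed 0.05 with DESeq2 (adjusted p = 0.0481). Emcn, Cd34, Adgrl4, Clec14a and Esam kept their direction under all 18. Genes called higher over the whole table numbered 0 by edgeR, 395 by DESeq2, 13 by limma-voom, 3 without a filter on low counts, and 1 each with FPKM + 0.1, with FPKM + 1 and no filter, and with the cluster term. Genes called lower numbered 0, 77 by DESeq2, 2 by limma-voom, and 1 each without a filter, with FPKM + 0.1 and with the cluster term. Without each sample in turn, 0 to 1 were called higher and 0 lower. The causes were not tested.

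The median log2 fold change of the 10 genes (-0.11) was -0.037 by limma-voom and -0.025 in the 4 libraries with many Lars2 and Rn45s counts, and ran from -0.14 to 0.020 without each sample, turning positive only without the 127-week sample. The large-vessel median (0.34) was 0.13 by limma-voom. The junction median (0.23) was 0.16 by limma-voom and 0.12 to 0.30 without each sample. Without each sample the medians ran from -0.24 to -0.11 for the other pan-endothelial genes, from -1.50 to -0.77 for sinusoidal markers, from 0.18 to 0.53 for large-vessel markers and from 0.73 to 1.68 for lymphatic markers. By limma-voom, Egfl7 turned to 0.046 and Cldn5 to -0.0044. Without 1 sample, the log2 fold change ran from -0.074 to 0.090 for Pecam1, -0.40 to 0.026 for Cdh5, -0.30 to 0.081 for Egfl7, -0.081 to 0.013 for Mmrn2 and -0.042 to 0.51 for Cldn5.

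No paired analysis was possible, because each sample has a single age and nothing in the labels matches a young sample with an aged one. With 3 samples a group, the 95% interval left out a 1.5-fold difference in either direction only for Pecam1 and Mmrn2.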
